A study of Mus musculus with 12 samples.

Results

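Glycogen breakdown in fast muscle was followed through 7 genes that encode muscle glycogen phosphorylase, its activating kinase and the proteins that bring phosphatases to glycogen. They are Pygm, Phka1, Phkb, Phkg1, Ppp1r3a, Ppp1r3c and Epm2a. Every probe set whose platform annotation names one of these genes alone was taken, which gave 11 of the 22626 probe sets tested. The 7 genes are among 12393 genes named in this way. No probe set named a member together with another gene. The arrays read total RNA from white gastrocnemius, the pale part of this calf muscle, in which fast glycolytic fibres prevail. One group was 6 male mice labelled as knock-outs of AMPK gamma3, a regulatory subunit of AMP-activated protein kinase that is found mainly in fast muscle. The other was 6 wild type littermates. Both groups shared the background (C57BL/6, generation F7), an age of 14 weeks and an overnight fast, and each genotype's mice are described as biological replicates. The comparison asks which transcripts of white muscle differ when the gamma3 subunit is missing. The targeted transcript was not analysed here, so the genotype labels were not checked against it.

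Glycogen phosphorylase cuts single glucose units from glycogen, and it is switched on when phosphorylase kinase phosphorylates it. Phosphorylase kinase is built from alpha, beta, gamma and calmodulin subunits, so that both adrenaline, through protein kinase A, and calcium released during contraction can start glycogen breakdown. Protein phosphatase 1 reverses this step and activates glycogen synthase, and it reaches glycogen through targeting subunits such as those encoded by Ppp1r3a and Ppp1r3c. AMPK binds glycogen through its beta subunits, and activating mutations of the gamma3 subunit are known for raising muscle glycogen in pigs.

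Values are RMA intensities made by the authors, shown as log2, so a difference of 1 is a doubling. RMA corrects background, makes the distributions of all arrays alike and merges the probes of a probe set, and probe sets differ in how they bind, so no gene's level is set against another gene's. A probe set's place among all probe sets describes its signal, not the amount of RNA. Array medians lay between 7.05 and 7.12 log2 units, array pairs correlated at 0.991 to 0.997, and 0 pairs were identical. The field Hybridize Date of the array records, read here as a fluidics time stamp, was used to group arrays close in time. The 3 groups, called wash runs here, each held 2 knockout and 2 wild type arrays. The array records also gave 2 scan days, 4 fluidics modules and 3 cage letters. Their genotype note matched the label on 12 of 12 arrays. The fast fibre markers of the labelled tissue were present, with 12 of 12 genes above the array's median level, but so were slow fibre (10 of 10), endothelial (6 of 6) and fibroblast (6 of 6) markers, while 2 of 5 hepatocyte genes lay above it. Precision is limited by the 6 arrays per genotype.

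No member differed between the genotypes beyond the spread between mice. Of their 11 probe sets, 0 passed an adjusted p of 0.05 (limma, Benjamini-Hochberg over all probe sets), where 0.0133% of all probe sets passed. At an unadjusted p below 0.05 the count was also 0, against 6.04% of all probe sets. In none of the 11 were the genotypes apart from each other, which 0.38% of all probe sets showed. Adjusted p-values ran from 0.896 to 0.994. The knockout mean was higher in 8 of the 11 probe sets, against 47.1% of all, and the median difference was 0.029, against -0.0047 over all probe sets. Muscle RNA was pooled over all cells of the piece, so fewer cells of a type and less RNA per cell cannot be told apart.

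Leaving out the pair of Ppp1r3c probe sets, the 95% intervals of the remaining 9 for knockout over wild type reached from -13.5% to 19.6%, so larger changes lie outside the intervals of these probe sets. For Ppp1r3c the intervals were wider, from -27.7% to 46.7% at probe set 1425631_at and from -15.8% to 34.2% at 1433691_at. All SEs and intervals given here are limma's, which draws each probe set's variance towards that of all probe sets. This narrows the intervals of the most variable probe sets and widens those of the least variable. With trended variance the SE of Ppp1r3c was 0.306 in place of 0.242 at 1425631_at and 0.194 in place of 0.159 at 1433691_at.

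**Figure D1:**
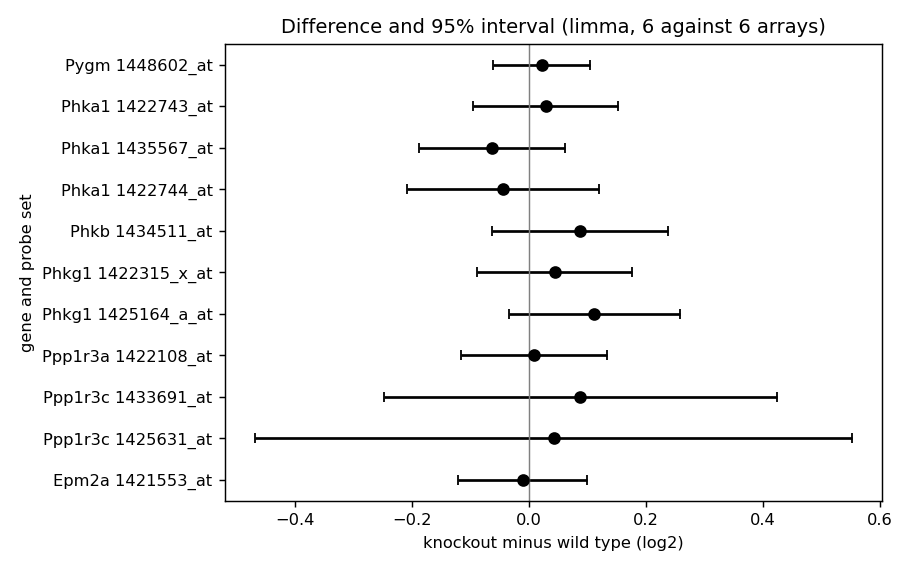
Knockout minus wild type on the log2 scale (x axis) for the 11 member probe sets (y axis), with points for the limma estimate and bars for its 95% interval over 6 against 6 arrays. Every interval includes 0, and the intervals of Ppp1r3c, which reach from -0.47 to 0.55, are the widest.

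Pygm encodes the muscle form of glycogen phosphorylase, the enzyme that is missing in McArdle disease. Its probe set 1448602_at had a lowest, median and highest log2 intensity of 13.43, 13.46 and 13.51 in knockout and of 13.41, 13.43 and 13.46 in wild type. The genotypes overlapped, with 3 of 6 knockout arrays above the highest wild type array and knockout replicate 3 the highest of all. The means were 13.46 ± 0.027 (SD, n = 6) and 13.44 ± 0.017 (SD, n = 6), a difference of 0.022 ± 0.0394 (SE) with a limma adjusted p of 0.971. The 95% interval of the knockout change ran from -4.18% to 7.54%. This SE and interval rest in part on the variance of all probe sets. They are therefore wider than the SDs of Pygm alone would give.

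Phka1, on the X chromosome, encodes the muscle alpha subunit of phosphorylase kinase, a large regulatory subunit. It was read by 3 probe sets, and they did not point the same way. At 1422743_at the lowest, median and highest values were 11.81, 12.06 and 12.20 in knockout and 11.95, 12.01 and 12.11 in wild type, with a difference of 0.029 ± 0.0587 (SE, limma adjusted p = 0.976). At 1435567_at the corresponding values were 11.53, 11.71 and 11.87 against 11.69, 11.78 and 11.87, with a difference of -0.063 ± 0.0589 (adjusted p = 0.939). At 1422744_at they were 10.78, 10.97 and 11.24 against 10.93, 11.05 and 11.22, with a difference of -0.045 ± 0.0778 (adjusted p = 0.969). At each of these probe sets the knockout values reached past the wild type values at both ends. The SDs were 0.133 in knockout and 0.052 in wild type at 1422743_at, 0.126 and 0.0674 at 1435567_at, and 0.184 and 0.113 at 1422744_at, and the difference in spread was not tested.

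Phkb encodes the beta subunit of the same kinase, which like the alpha subunit is a target of protein kinase A. Probe set 1434511_at gave 11.19, 11.41 and 11.51 as lowest, median and highest in knockout and 11.03, 11.35 and 11.39 in wild type. Knockout replicates 3, 5 and 6 lay above every wild type array, and wild type replicate 1 was the lowest of all, the next wild type array being at 11.27. The means of 11.38 ± 0.135 (SD, n = 6) and 11.29 ± 0.136 (SD, n = 6) differed by 0.088 ± 0.0713 (SE, limma adjusted p = 0.92). Without wild type replicate 1 the difference was 0.035.

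Phkg1 encodes the muscle gamma subunit, which carries the kinase activity. Its probe set 1425164_a_at had a lowest, median and highest value of 9.96, 10.15 and 10.22 in knockout and of 9.83, 9.99 and 10.18 in wild type. Wild type replicates 1, 2 and 3 lay below every knockout array, while wild type replicates 4, 5 and 6 lay among them. The difference of 0.11 ± 0.0691 (SE) was the largest of the 11, and its limma adjusted p was 0.896. Probe set 1422315_x_at, whose suffix marks probes that may also bind other transcripts, gave 10.08, 10.16 and 10.33 against 9.96, 10.13 and 10.30, with a difference of 0.044 ± 0.0629 (adjusted p = 0.964). At 1425164_a_at the difference was 0.015, 0.35 and -0.032 in wash runs 1, 2 and 3 taken alone, each with 2 arrays a genotype, so the higher knockout mean came mainly from run 2. With the fluidics module as a block it was 0.17 ± 0.0547 (SE, limma adjusted p = 0.704).

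Ppp1r3a encodes the large muscle targeting subunit that anchors protein phosphatase 1 to glycogen and the sarcoplasmic reticulum. It was the 1 member below the array's median level of 7.09. Probe set 1422108_at gave 6.41, 6.48 and 6.67 as lowest, median and highest in knockout and 6.33, 6.48 and 6.62 in wild type, and only knockout replicate 6 lay above, and wild type replicate 4 below, the range of the other genotype. The difference was 0.0089 ± 0.059 (SE, limma adjusted p = 0.994).

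Ppp1r3c, which encodes the targeting subunit known as protein targeting to glycogen, was the member that varied most between mice. Probe set 1433691_at had a lowest, median and highest value of 11.83, 12.42 and 12.83 in knockout and of 11.68, 12.44 and 12.60 in wild type. Probe set 1425631_at gave 10.16, 11.07 and 11.53 against 9.96, 11.09 and 11.45. At both probe sets knockout replicate 3 was the lowest knockout array and wild type replicate 2 the lowest wild type array. The highest array exceeded the lowest by 2.21-fold at 1433691_at and by 2.97-fold at 1425631_at, and this range was shared by the genotypes. Knockout replicate 5 was highest at the first probe set and knockout replicate 2 at the second. The mean differences were 0.088 ± 0.159 (SE, limma adjusted p = 0.97) and 0.043 ± 0.242 (SE, adjusted p = 0.993).

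Epm2a encodes laforin, a phosphatase that binds glycogen and removes phosphate from it, and whose loss causes Lafora disease. Probe set 1421553_at gave 7.45, 7.57 and 7.68 as lowest, median and highest in knockout and 7.49, 7.57 and 7.69 in wild type. Only knockout replicate 5 lay outside the wild type range, just below it. The difference was -0.011 ± 0.0526 (SE, limma adjusted p = 0.991), with a 95% interval of the knockout change from -8.1% to 7.18%.

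**Figure D2:**
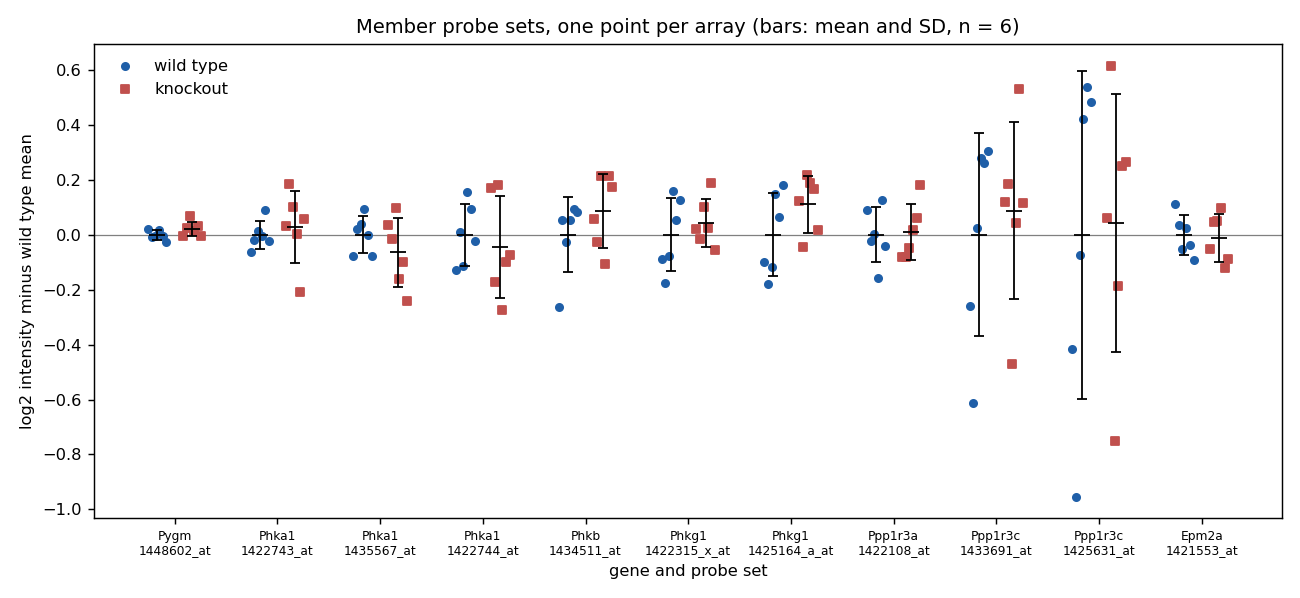
Log2 intensity of each array minus the wild type mean (y axis) for the 11 member probe sets (x axis), with blue circles for the 6 wild type and red squares for the 6 knockout arrays and black bars for mean and SD. The genotypes overlap at every probe set. The Pygm points lie almost on a line, and those of Ppp1r3c at 1425631_at spread from 9.96 to 11.53 before the wild type mean is subtracted.

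The members differed more from each other in spread than in genotype difference. The SD within genotype, pooled over both, had a median of 0.105 over all probe sets and of 0.103 over those above the median level. Ppp1r3c reached 0.348 at 1433691_at and 0.538 at 1425631_at, and 0.517% and 0.115% of all probe sets were more variable. Pygm lay at the opposite end with 0.0228, and 2 of the 22626 probe sets were less variable. The 9 probe sets of the members other than Ppp1r3c had pooled SDs up to 0.153, and without Pygm the lowest of them was 0.0816 for Epm2a. Phka1 at 1422744_at, with 0.153, was exceeded by 14% of all probe sets, and Phkb, with 0.136, by 22%.

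Pygm was also one of the probe sets with the strongest signal, with rank 29 by mean intensity. Among the 100 brightest probe sets, 98 were more variable than Pygm and the median pooled SD was 0.0632. The highest log2 value on any array was 14.41. The part of the bright end of the scale in the narrow spread of Pygm was not tested.

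**Figure D3:**
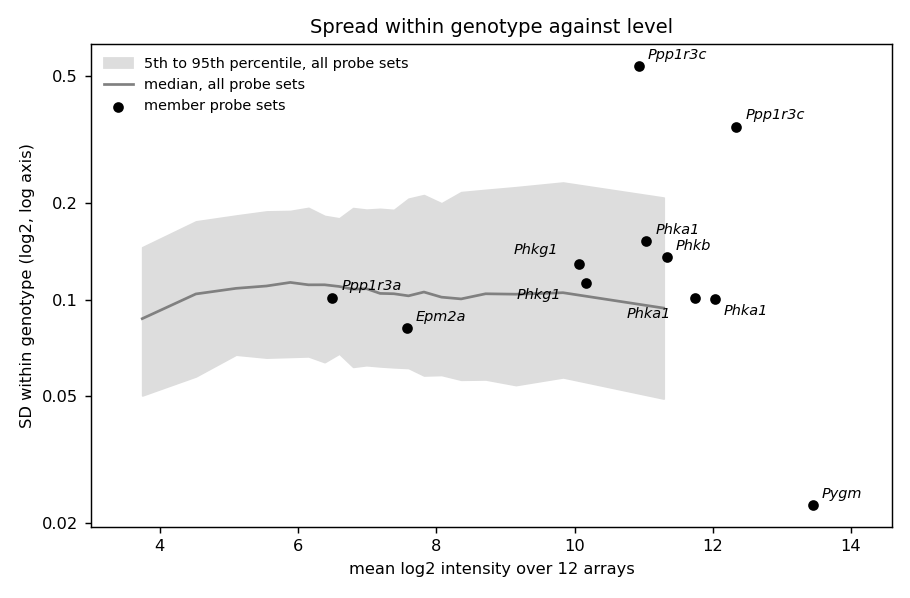
SD within genotype on a log axis (y axis) against mean log2 intensity over 12 arrays (x axis), with black points for the member probe sets, a grey line for the median and a grey band for the 5th to 95th percentile of all probe sets in 20 bins of level. Both Ppp1r3c points, at 0.348 and 0.538, lie above the band and Pygm, at 0.0228, lies below it.

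Ppp1r3c stood highest in wash run 3. Its mean was 12.38, 12.04 and 12.60 in runs 1, 2 and 3 at 1433691_at, and 11.08, 10.42 and 11.30 at 1425631_at. Both arrays at the low end, knockout replicate 3 and wild type replicate 2, belonged to run 2. The wash runs hold different mice, so run and mouse cannot be told apart. Fitted with wash run as a blocking factor, the SE of the genotype difference was 0.119 in place of 0.159 at 1433691_at and 0.168 in place of 0.242 at 1425631_at, and the adjusted p was 0.955 and 0.987 (limma). With scan day as the block these SEs were 0.134 and 0.211, and with the replicate number 0.132 and 0.226. The module gave 0.158 and 0.269, and the cage letter 0.158 and 0.253, so not every block lowered both.

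The upstream sequences of the most and the least variable member are given. They are the 250 bases before the RefSeq start of each gene, 5′ to 3′ on the gene's strand, in assembly GRCm38.p6. Capitals mark matches, on either strand, to an E-box (CANNTG, bound by myogenic and clock factors), a CCAAT box (CCAAT), the TATA box (TATAAA), a FOXO site (GTAAACA) or a cAMP response element (TGACGTCA). The short form of the last, TGACG, was searched as well and overlaps it.
Ppp1r3c (chr19:36736605-36736854, minus strand): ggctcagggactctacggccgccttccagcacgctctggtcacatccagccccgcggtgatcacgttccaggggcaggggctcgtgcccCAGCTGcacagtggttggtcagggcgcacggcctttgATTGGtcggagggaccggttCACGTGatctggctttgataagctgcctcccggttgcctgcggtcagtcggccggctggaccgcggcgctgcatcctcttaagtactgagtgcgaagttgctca
Pygm (chr19:6384158-6384407, plus strand): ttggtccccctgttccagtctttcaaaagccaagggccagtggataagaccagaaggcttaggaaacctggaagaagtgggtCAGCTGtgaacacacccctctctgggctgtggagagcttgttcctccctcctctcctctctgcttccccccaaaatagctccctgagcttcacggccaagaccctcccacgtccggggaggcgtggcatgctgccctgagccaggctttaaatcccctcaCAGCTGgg

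Both windows held an E-box, as did 66.2% of 32851 RefSeq windows of this length. Ppp1r3c had 2, one of the form CACGTG, found in 6.02% of all windows, and one of the form CAGCTG, found in 13%. Both E-boxes of Pygm were of the form CAGCTG. The CCAAT box, present in 33.9% of windows, occurred once before Ppp1r3c, on the opposite strand, and not before Pygm. The TATA box (12.4% of windows), the FOXO site (3.17%), TGACGTCA (1.55%) and TGACG (17.8%) had no match in either window. Such matches describe the letters only.

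Probe sets of the same gene were compared across the 12 arrays in 5 pairs. Those of Ppp1r3c moved together, with r = 0.91 (permutation test, two-sided, adjusted p = 3e-04) and rho = 0.81 (permutation adjusted p = 0.00573), and with r = 0.74 without the 2 arrays farthest from the median of 1433691_at. Those of Phkg1 gave r = 0.87 (permutation adjusted p = 0.000625), rho = 0.82 (permutation adjusted p = 0.00573) and r = 0.84 without the 2 farthest arrays. For Phka1, 1435567_at and 1422744_at gave r = 0.67 (permutation adjusted p = 0.0271, unadjusted 0.0162), rho = 0.64 (permutation adjusted p = 0.0493) and r = 0.69 without the 2 farthest arrays. The third Phka1 probe set, 1422743_at, gave r = 0.25 and 0.17 with the others (permutation adjusted p = 0.55 and 0.602). Its rho was 0.29 and 0.20 (permutation adjusted p = 0.442 and 0.527), so the Phka1 values below, which rest on this brightest probe set, may not hold for the others.

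Between different members, 0 of the 21 pairs passed when each gene was read by its brightest probe set (permutation test of r, two-sided, Benjamini-Hochberg over the 21 pairs), and 3 had an unadjusted p below 0.05. Phkb and Epm2a ran in opposite directions, with r = -0.68 (permutation p = 0.0133, adjusted p = 0.243) and rho = -0.59 (permutation p = 0.0457, adjusted p = 0.313). Within knockout and within wild type r was -0.67 and -0.73, with each run's mean subtracted -0.52, and without the 2 arrays farthest from the Phkb median -0.33. Leaving out the extreme arrays narrows the range, which by itself brings r closer to none. Whether the relation rests on those arrays therefore cannot be read from this value.

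Phkg1 and Ppp1r3c ran together, with r = 0.65 (permutation p = 0.0231, adjusted p = 0.243) and rho = 0.75 (permutation p = 0.00694, adjusted p = 0.146). Here and below Phkg1 is read by its brightest probe set, 1422315_x_at, whose probes may also bind other transcripts. In the 6 wild type mice r was 0.92 and in the 6 knockout mice 0.17, a difference that was not tested. With each run's mean subtracted r was 0.55, and without the 2 arrays farthest from the Phkg1 median it was 0.26. As above, the narrower range by itself lowers r. Ppp1r3c and Epm2a ran in opposite directions, with r = -0.60 (permutation p = 0.0419, adjusted p = 0.294) and rho = -0.64 (permutation p = 0.0288, adjusted p = 0.303). Here r was -0.60 in knockout, -0.61 in wild type, -0.37 with each run's mean subtracted and -0.67 without the 2 farthest arrays. Each run alone holds 4 arrays, too few for a value of its own. Without knockout replicate 3, Phkb with Epm2a (r = -0.85, permutation adjusted p = 0.00441, 11 arrays) and Phkg1 with Ppp1r3c (r = 0.89, permutation adjusted p = 0.00105, 11 arrays) passed, so that mouse decided whether these pairs did.

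**Figure D4:**
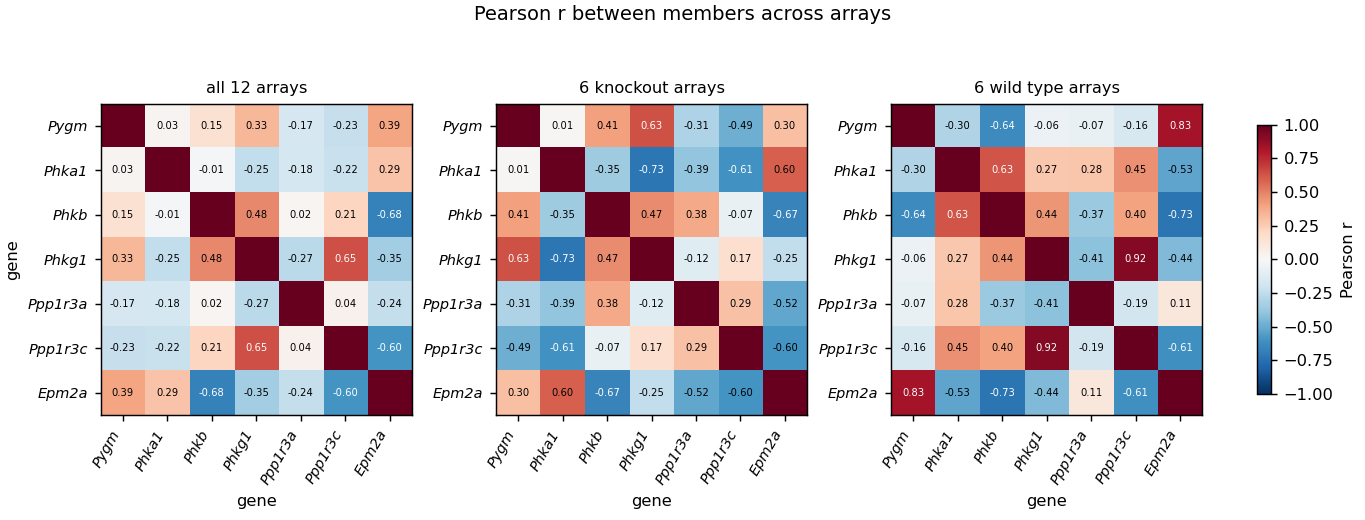
Pearson r between the 7 members, each read by its brightest probe set, over all 12 arrays, the 6 knockout arrays and the 6 wild type arrays (genes on both axes, colour and printed value for r). Phkg1 and Ppp1r3c reach 0.92 in wild type against 0.17 in knockout, and Phkb and Epm2a stay between -0.73 and -0.67.

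The RNA of slow fibre genes varied between mice, though not evenly over the list. The summed level of the 10 slow fibre genes, all measured and all above the median level, ran from 11.50 to 13.00 log2 units in knockout and from 11.55 to 13.00 in wild type. The SD between knockout mice was 0.987 for Tnnt1, the slow form of troponin T. It was 0.126 for the calsequestrin gene Casq2 and 0.0552 for the brightest probe set of the tropomyosin gene Tpm3. Of the 10 genes, 9 were lower in knockout and 1 higher, with a median difference of -0.35, and 0 passed (limma, with 0 at an unadjusted p below 0.05). The 1 higher gene was Tpm3, at 0.021 by the brightest of its 5 probe sets, while its other probe sets gave -0.41 to -0.011. For the correlations the slow fibre level was not this sum but the mean log2 value of the 10 genes, each centred on its own mean. It ran from -0.64 to 0.89 over the arrays. None of the 7 members passed a correlation with this slow fibre level over 12 arrays (permutation test, two-sided, adjusted over 7 relations, lowest adjusted p = 0.517 for r and 0.487 for rho), and 0 had an unadjusted p below 0.05. For Ppp1r3c r was 0.31 (permutation p = 0.327) and rho 0.35 (permutation p = 0.267), with 0.18 without the 2 arrays farthest from the median slow fibre level. For Phkg1 r was 0.38 (permutation p = 0.222) and rho 0.36 (permutation p = 0.245), with 0.35 without those arrays. Over all 12 arrays r was largest in size for Phka1 (0.43, permutation p = 0.166) and Ppp1r3a (-0.41, permutation p = 0.188). In wild type alone, r with the slow fibre level was 0.93 for Phkg1 and 0.82 for Ppp1r3c, the largest of the 7 members there. In knockout these gave -0.23 and -0.16 (6 arrays each, difference not tested). The largest in knockout were Epm2a, Phka1 and Ppp1r3a, with 0.65, 0.65 and -0.60, against -0.17, 0.32 and -0.23 in wild type. With each run's mean subtracted r was 0.38 for Phkg1 and 0.22 for Ppp1r3c.

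The pattern of Ppp1r3c across mice was most like that of Noct and Tsc22d3. Likeness was measured as Pearson r over the 12 arrays after subtracting each genotype's mean, with each gene read by its brightest probe set, and is given as a description. Noct, which encodes the rhythmically expressed phosphatase nocturnin, had r = 0.97, and Tsc22d3, which encodes the glucocorticoid-induced leucine zipper protein, had r = 0.96. Within knockout and within wild type r was 0.97 and 0.98 for Noct, and 0.95 and 0.98 for Tsc22d3. Both genes were chosen as the highest among 12393 genes over these same arrays. High values within each genotype follow in part from that choice.

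Noct ranged from 6.78 in wild type replicate 2 to 8.52 in knockout replicate 5, a 3.33-fold range, and Tsc22d3 from 10.92 to 11.77 in the same mice, a 1.8-fold range. Against the second Ppp1r3c probe set, which itself ran with the first, r was 0.88 for Noct and 0.91 for Tsc22d3. A further Tsc22d3 probe set, 1425281_a_at, gave 0.94 with that probe set, while 1425557_x_at gave 0.47. Knockout minus wild type was 0.21 for Noct and 0.19 for Tsc22d3 (limma adjusted p = 0.955 and 0.866). The arrays share their wash runs in these values, as described for Ppp1r3c above.

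**Figure D5:**
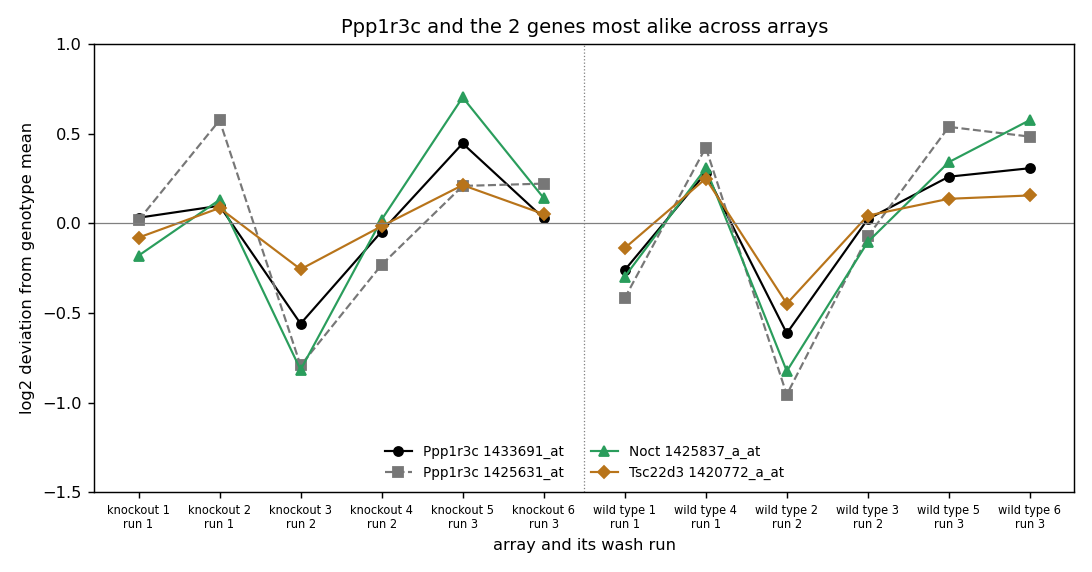
Log2 deviation from the genotype mean (y axis) on each array, ordered by genotype and wash run (x axis), for both Ppp1r3c probe sets, Noct and Tsc22d3. All 4 lines dip at knockout replicate 3 and wild type replicate 2, where Noct lies 0.82 below its genotype mean in each.

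The rest of the glycogen pathway was read from lists of genes, each by its brightest probe set, and 0 genes of these lists passed (limma, adjusted over all probe sets). The counts of each list stand beside 47.1% of all probe sets higher in knockout and 6.04% at a limma unadjusted p below 0.05. Of 12 further genes of glycogen breakdown 8 were measured, of which 7 were lower and 1 higher in knockout, with a median of -0.031 and 0 at an unadjusted p below 0.05. They included Pygb and Pygl, the brain and liver forms of phosphorylase, at -0.022 ± 0.0557 and -0.028 ± 0.0741 (SE). The liver alpha and the testis and liver gamma subunit of phosphorylase kinase, Phka2 and Phkg2, gave -0.073 and -0.033. The smallest p in this list belonged to Gaa, the lysosomal acid glucosidase, at 0.10 ± 0.061 (SE, limma adjusted p = 0.879) and Stbd1, a glycogen-binding protein, at -0.17 ± 0.102 (SE, adjusted p = 0.886).

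Of 11 genes of protein phosphatase 1 and its other glycogen targeting, 6 were measured, with 5 higher and 1 lower and a median of 0.027. Ppp1r1a, which encodes the phosphatase inhibitor that protein kinase A switches on, had the smallest p. Its values ran from 7.99 to 8.37 in knockout and from 7.92 to 8.12 in wild type, so the genotypes overlapped. The means of 8.21 ± 0.15 (SD, n = 6) and 8.02 ± 0.0913 (SD, n = 6) differed by 0.19 ± 0.0669 (SE, limma unadjusted p = 0.01, adjusted p = 0.78). Ppp1r2, another phosphatase inhibitor, gave 0.081 ± 0.0454 (SE) by the brightest of its 3 probe sets, and the others gave -0.041 to 0.011. The catalytic subunits Ppp1ca, Ppp1cb and Ppp1cc gave 0.029, 0.019 and -0.017. Further probe sets gave 0.001 to 0.017 for Ppp1cb and 0.034 for Ppp1cc, so the sign of Ppp1r2 and Ppp1cc depended on the probe set.

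On the synthesis side all 5 genes were measured and all 5 were lower in knockout, with a median of -0.030 and 2 at an unadjusted p below 0.05. These were Ugp2, which makes UDP-glucose, at -0.25 ± 0.0616 (SE, limma adjusted p = 0.561) and the branching enzyme Gbe1, a dim probe set, at -0.35 ± 0.0958 (SE, adjusted p = 0.573), while glycogen synthase, Gys1, gave -0.0036 ± 0.0597 (SE). The remaining genes, Gys2 and Gyg, gave -0.024 ± 0.0671 and -0.030 ± 0.0644 (SE), so the differences of these and of Gys1 were smaller than their SE. Of 19 genes that carry the adrenaline signal to phosphorylase kinase 13 were measured, 7 higher and 6 lower, with a median of 0.0065 and 0 at an unadjusted p below 0.05. Pkia, an inhibitor of protein kinase A, gave 0.11 ± 0.0643 (SE) and the adenylyl cyclase Adcy9 gave 0.060 ± 0.064 (SE), with limma adjusted p = 0.877 and 0.954. The other probe set of Pkia gave -0.055, and those of Adcy9 gave 0.052 to 0.087.

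Markers of fibres and of other cells in the piece were read beside the members, and 0 of them passed (limma, adjusted over all probe sets). Genes given below with an unadjusted p are those under 0.05, as were 6.04% of all probe sets. The 12 fast fibre genes were 7 higher and 5 lower, with a summed level from 17.15 to 17.21 in knockout and from 17.10 to 17.20 in wild type. Fat cell genes (6 of 8 measured) were 5 higher and 1 lower, with summed levels of 13.38 to 13.63 and 13.41 to 13.56, and Cidec gave 0.26 (limma unadjusted p = 0.0198). Most of that sum was Car3, with means of 13.17 in knockout and 13.10 in wild type, against 10.87 in both for Fabp4, the next brightest. The summed level therefore says little about the other fat cell genes. Endothelial genes were 1 higher and 5 lower, at 10.64 to 10.77 and 10.72 to 10.94, with Kdr at -0.22 (unadjusted p = 0.0328). Schwann cell and nerve genes (4 of 6 measured) were 2 higher and 2 lower, at 10.81 to 11.03 and 10.69 to 10.93, with Pmp22 at 0.25 (unadjusted p = 0.00417).

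Macrophage genes were 4 higher and 2 lower, at 11.28 to 11.59 and 11.28 to 11.50, with Cd74 at 0.18 (unadjusted p = 0.0401). Fibroblast genes were 1 higher and 5 lower, at 13.30 to 13.94 and 13.47 to 13.86, with Pdgfra at 0.15 (limma unadjusted p = 0.0109). Pdgfra was the 1 higher gene, and its other probe set gave -0.048. Hepatocyte genes (5 of 6 measured) were 1 higher and 4 lower, at 9.39 to 9.55 and 9.47 to 9.64, and 2 of them lay above the median level of the array. The summed levels of the genotypes overlapped for each of these lists.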

How the data were processed

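Total RNA of 12 muscle samples was measured on Affymetrix MOE430A arrays, per the file headers. The authors deposited intensities obtained by RMA (named in the submitters' processing notes), whose version is not given in the sources used here. They are linear, from 7.47 to 21828, and log2 was taken here with no pseudocount. Of 22690 probe sets, 64 array controls were left out. Platform annotation, with symbols updated to RefSeq of assembly GRCm38.p6, named 1 gene for 20380 probe sets, several for 691 and none here for 1555.

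Genotypes were compared by limma 3.58.1 under R 4.3.3 (lmFit, then eBayes, genotype as the only term, two-sided, threshold adjusted p of 0.05). The test was checked on simulated data. Correlations used 100000 permutations (numpy 2.4.6). The members and lists were chosen with earlier results of these data known. Genes named from a pathway list were those past the threshold or else the 2 with the smallest p, from a marker list those at an unadjusted p below 0.05, and for each member the 2 genes most alike. Isoforms of the members, phosphatase catalytic subunits and Gys1 were added for their roles, after their values were seen. Tnnt1, Casq2, Tpm3, Car3 and Fabp4 were named for their spread or level, also after their values were seen. Alternatives were the replicate number, wash run, scan day, module and cage as blocks, centring, quantile normalization, a level filter, trended variance, array weights, log2 of intensity plus 16, and leaving out each array. Wash runs were inferred by joining arrays whose time stamps (field Hybridize Date) lay up to 60 minutes apart.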

Additional observations from a re-analysis of the deposited data

Results flagged for a closer look

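Within each genotype, the 11 probe sets were searched for a single array far from the others (Dixon's test, 95% level), which gave 22 groups of 6 arrays, of which 1 stood out where chance gives about 5% of groups. It was Phkb at 1434511_at in wild type replicate 1, whose log2 intensity of 11.03 lay below the next wild type value of 11.27. Without that array the knockout minus wild type difference of Phkb was 0.035 in place of 0.088.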

How the results depend on the processing

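No member probe set passed under any of the 11 other settings or the 12 fits that left out 1 array, and the smallest adjusted p was 0.677. Ppp1r3a has no value under the filter on level. Of these 252 member values, 235 kept their sign and 17 reversed. Epm2a became 0.00079 with arrays centred on their median and 0.012 with the fluidics module as a block, and Phka1 at 1422744_at became 0.015 with array weights. The module block moved Phkg1 to 0.17 at 1425164_a_at and to 0.081 at 1422315_x_at. The cause was not tested. Leaving out 1 array moved Epm2a between -0.033 and 0.012 (reversed without knockout replicates 5 or 6 or wild type replicate 1) and Ppp1r3a between -0.026 and 0.034 (reversed without knockout replicates 5 or 6 or wild type replicate 4). It moved Phka1 between -0.0021 and 0.077 at 1422743_at (reversed without knockout replicate 2) and between -0.090 and 0.0011 at 1422744_at (reversed without knockout replicate 4). Ppp1r3c moved between -0.034 and 0.20 at 1433691_at (reversed without knockout replicate 5 or wild type replicate 2). At 1425631_at it moved between -0.15 and 0.20 (reversed without knockout replicates 2 or 6 or wild type replicates 1 or 2). The sign of these small differences is therefore not settled. Without a change of sign, leaving out 1 array moved Phkg1 between 0.0090 and 0.076 at 1422315_x_at (lowest without wild type replicate 2, highest without wild type replicate 4) and between 0.076 and 0.15 at 1425164_a_at. In the same fits Phka1 at 1435567_at moved between -0.095 (without knockout replicate 3) and -0.028 (without knockout replicate 6), Phkb between 0.035 and 0.13, and Pygm between 0.012 and 0.027. The number of member pairs past the threshold was 0 with all arrays and ranged from 0 to 2 when 1 array was left out, with 2 without knockout replicate 3. The count over the array was 3, and it ranged from 2 to 3 when 1 array was left out and from 2 to 4 under the other settings. The replicate numbers do not pair the mice: the deviations of same-numbered arrays correlated at -0.15 to 0.20, over 0.1 in 2 of 6 pairs. With the replicate block 0 member probe sets and 2 probe sets of the array passed, and Phkg1 at 1425164_a_at had an adjusted p of 0.829. Intensities of the dim Ppp1r3a probe set limit what can be seen for that gene.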

Other observations

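The genes most like the other members across the 12 arrays, after subtracting each genotype's mean and with each gene read by its brightest probe set, were of many kinds, and the values describe these arrays only. Each was chosen as highest among 12393 genes. Phka1 was most like Mr1, which presents vitamin metabolites to T cells (r = 0.96), and Kcnj11, the pore of the ATP-sensitive potassium channel (r = 0.95). Phkb was most like Memo1 (r = 0.90) and Lypla1, a depalmitoylating thioesterase (r = 0.89). Phkg1 was most like Sugp2 and Ndufb2, a subunit of respiratory complex I (r = 0.94 for both). Epm2a was most like Arid1a, a subunit of SWI/SNF chromatin remodelling complexes (r = 0.96), and Ddit3, a transcription factor of the stress response (r = 0.92). Pygm was most like Tmem128 and Rasd2 (r = 0.88 for both), and Ppp1r3a was most like Galnt3 (r = 0.88) and Sgf29 (r = 0.86). None of these genes differed between genotypes at the threshold (limma, lowest adjusted p = 0.781 for Rasd2).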
